A study of Rattus norvegicus with 36 samples.

Results

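The cell cycle and mitosis genes described here were a module of 40 genes chosen by name, 11 of DNA replication and nucleotide supply, 24 of mitosis, and the G1 and S phase cyclins with the proliferation antigen gene Mki67 (5 genes). Their transcripts were measured in liver from male rats of the outbred Harlan Sprague Dawley stock, 7 weeks old when dosing began and all on the same diet. Every rat was gavaged with corn oil on 5 consecutive days. For the vehicle group the oil held nothing else, and for the others it carried decaBDE (a flame retardant rich in bromine) at 0.1 or 0.959 mg/kg, at 9.59 mg/kg, and at 95.9 or 959 mg/kg. Necropsy followed 1 day later, and RNA came from the left lobe. Each of the 6 groups had 6 arrays, 36 in all. Signals are log2 RMA values of 3' expression arrays, so a difference of 1 is a doubling of signal. Of the 40 genes, 37 had a probe set annotated to that gene alone, among 14217 such genes on the array, and the brightest probe set stands for each gene. Nek2, Tpx2 and Rrm2 had none. Whether every array stands for a separate rat is not stated in the labels, and the tests measure the spread between arrays.

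Cells that commit to division pass from G1 into S phase, when DNA is copied, and then through G2 into mitosis, when the copies are parted. Genes for the replication machinery are switched on around the start of S phase, largely through E2F factors, and mitosis genes later, through complexes that bind CHR elements and CCAAT boxes. In the adult liver few hepatocytes divide at any time, but the organ keeps the capacity for regrowth, and several compounds that activate the nuclear receptor CAR are known to cause a wave of hepatocyte division in rodents. In RNA of whole tissue, fewer dividing cells and less RNA per dividing cell cannot be told apart.

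RefSeq promoters on the rat build GRCr8, each holding 250 bases before and 50 after the table's transcript start, were found for 28 of the 37 measured genes. Both strands were searched for CHR letters (TTTGAA or TTTAAA), E2F letters (TTTGGCGC, TTTCGCGC, TTTCCCGC or TTTGCCGC) and CCAAT. CHR letters stood in 17 of 17 mitosis promoters and 1 of 9 replication promoters, against 27.9% of all 27457 promoters in the table. E2F letters stood in 1 of 17 mitosis promoters, that of Cdk1, and in 6 of 9 replication promoters, against 2.25% of all. CCAAT stood in 14 of 17 mitosis and 6 of 9 replication promoters, against 37.7% of all. Among the 11701 promoters of genes with a probe set of their own, the shares were 19.9% (CHR), 3.65% (E2F) and 37.3% (CCAAT). These matches describe letters, not bound sites. The promoters of 4 mitosis genes and 2 replication genes are shown 5′ to 3′ because the expression data below are ordered by these roles, with the searched letters on either strand in capitals. They lie at chr20:19265043-19265342 (Cdk1, plus strand), chr2:33655176-33655475 (Ccnb1, minus strand), chr8:79981609-79981908 (Ccnb2, minus strand), chr1:244536617-244536916 (Kif11, plus strand), chr9:30733697-30733996 (Mcm3, minus strand) and chr13:42404303-42404602 (Mcm6, minus strand).
Cdk1: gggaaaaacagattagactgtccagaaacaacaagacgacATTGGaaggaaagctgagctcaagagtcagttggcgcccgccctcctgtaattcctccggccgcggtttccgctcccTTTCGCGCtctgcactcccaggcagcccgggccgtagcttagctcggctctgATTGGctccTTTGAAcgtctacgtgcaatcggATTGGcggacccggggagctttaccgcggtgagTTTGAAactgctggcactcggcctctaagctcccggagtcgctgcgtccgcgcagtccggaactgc
Ccnb1: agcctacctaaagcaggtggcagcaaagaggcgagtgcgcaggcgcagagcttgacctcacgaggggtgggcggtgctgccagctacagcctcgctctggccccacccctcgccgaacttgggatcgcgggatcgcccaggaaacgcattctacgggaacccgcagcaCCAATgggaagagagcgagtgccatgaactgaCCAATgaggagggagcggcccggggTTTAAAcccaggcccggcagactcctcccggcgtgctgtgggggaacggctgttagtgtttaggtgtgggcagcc
Ccnb2: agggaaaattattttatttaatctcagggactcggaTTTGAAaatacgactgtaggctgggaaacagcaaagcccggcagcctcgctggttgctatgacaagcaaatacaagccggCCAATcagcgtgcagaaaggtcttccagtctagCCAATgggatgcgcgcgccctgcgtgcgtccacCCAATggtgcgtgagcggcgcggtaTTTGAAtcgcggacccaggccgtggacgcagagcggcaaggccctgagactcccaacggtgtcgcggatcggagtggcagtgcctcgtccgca
Kif11: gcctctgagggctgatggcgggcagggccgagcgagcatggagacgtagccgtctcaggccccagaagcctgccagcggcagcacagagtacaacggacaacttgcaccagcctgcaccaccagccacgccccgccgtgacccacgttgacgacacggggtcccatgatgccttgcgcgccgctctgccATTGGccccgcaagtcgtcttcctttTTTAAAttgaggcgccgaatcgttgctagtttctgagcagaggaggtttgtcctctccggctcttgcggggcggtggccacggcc
Mcm3: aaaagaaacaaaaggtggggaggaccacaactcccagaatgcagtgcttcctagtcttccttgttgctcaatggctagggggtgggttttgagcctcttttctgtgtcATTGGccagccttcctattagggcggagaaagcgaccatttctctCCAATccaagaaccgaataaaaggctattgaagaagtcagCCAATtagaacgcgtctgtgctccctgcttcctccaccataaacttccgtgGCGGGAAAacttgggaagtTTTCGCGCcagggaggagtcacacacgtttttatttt
Mcm6: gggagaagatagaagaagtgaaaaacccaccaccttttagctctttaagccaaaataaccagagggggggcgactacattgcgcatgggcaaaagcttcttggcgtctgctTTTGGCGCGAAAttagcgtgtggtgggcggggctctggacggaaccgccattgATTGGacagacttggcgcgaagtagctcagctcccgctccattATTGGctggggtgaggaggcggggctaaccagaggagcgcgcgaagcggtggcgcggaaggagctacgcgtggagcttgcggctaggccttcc
In Cdk1, TTTGAA began 72 and 16 bases before the start, and reversed CCAAT boxes (ATTGG) began 210, 81 and 49 bases before it. Ccnb1 had TTTAAA, which reads the same on both strands, 25 bases before the start and CCAAT boxes at 82 and 50 bases, and Ccnb2 had TTTGAA at 214 and 43 bases with CCAAT boxes at 134, 101 and 68 bases. The Kif11 start used here, base 244536867 of chr1, lies inside the annotated gene, which runs from 244494916 to 244589250. Mcm3 and Mcm6 had no CHR letters and 2 E2F matches each, which in Mcm6 overlap. Over the 17 mitosis promoters, the nearest CHR match lay between 4 bases (Bub1b and Ttk) and 149 bases (Cdkn3) from the start.

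No cell cycle gene passed the test at any dose. Expression of each dose was compared with vehicle to ask whether the compound moved these transcripts. limma called 0 of the 37 genes at each of the 5 doses, where the share called among all 31042 probe sets, from the lowest to the highest dose, was 0%, 0.029%, 0.116%, 0.0902% and 0.11%. It also called 0 of 37 for any difference among the doses (0.135% of all probe sets) and for a straight line in dose rank (0.393%). The same model without variance moderation called 0 members in each of the 7 tests. In dose order that model called 0, 8, 35, 27 and 35 of the 31042 probe sets. It called 46 for any difference among the doses and 130 for the line in dose rank. At an unadjusted p under 0.05 the members numbered 0, 6, 2, 13 and 15 of 37 from the lowest to the highest dose, every one of them positive, against 2.22%, 3.12%, 4.66%, 3.53% and 3.55% of all probe sets that were positive at that level. None was negative at that level, where 1.56%, 2.95%, 3.95%, 3.49% and 2.53% of all probe sets were. For the line in dose rank, 23 of 37 members were positive at that level, against 4.66% of all probe sets, and none negative, against 4.05%. For any difference among the doses, 13 of 37 reached it, against 7.53% of all. These genes varied together from array to array, as described further on, so they are not 37 separate readings. No member had all 6 arrays of a dose above or below every vehicle array, where 0.0741%, 0.267%, 0.435%, 0.332% and 0.283% of all probe sets lay wholly above from the lowest to the highest dose, and 0.0677%, 0.142%, 0.171%, 0.235% and 0.161% wholly below. The liver's answer to dosing was visible elsewhere on the arrays: Cyp1a1, an enzyme induced through the aryl hydrocarbon receptor, averaged 9.41 ± 0.568 at 959 mg/kg and 4.69 ± 0.174 in vehicle (SD, n = 6 each, limma adjusted p = 3.61e-17).

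The 22 mitosis genes had median log2 differences from vehicle of -0.03, 0.29, 0.03, 0.30 and 0.37 from 0.1 to 959 mg/kg in dose order, and 8, 21, 13, 20 and 21 of them were positive. For the 10 replication genes the medians were -0.06, 0.06, 0.03, 0.09 and 0.05, with 2, 7, 6, 8 and 7 positive. When 1 array was left out, the replication median ran from 0.03 (without 0.959 mg/kg replicate 5) to 0.09 (without replicate 1) at 0.959 mg/kg, from 0.001 (without vehicle replicate 1) to 0.045 (without 9.59 mg/kg replicate 5) at 9.59 mg/kg, and from 0.025 (without 959 mg/kg replicate 2) to 0.082 (without replicate 4) at 959 mg/kg. The median over all probe sets lay between -0.004 and 0.006 at every dose, and 53.2%, 52%, 50.1%, 48.3% and 49.5% of probe sets were positive. The slope in dose rank was positive for 33 of 37 members, against 46.9% of all probe sets. At 959 mg/kg the 95% interval lay wholly above 0 for 11 of 22 mitosis and 2 of 10 replication genes, and for none of either did it lie wholly below. These are genes already counted above at an unadjusted p under 0.05, not a separate reading. Over all probe sets 3.55% were positive and 2.53% negative at that level. The upper bound stayed under 0.5 for 9 of 10 replication genes and 5 of 22 mitosis genes. No share over all probe sets is given here for that bound. The difference between the groups of genes was not tested.

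**Figure D1:**
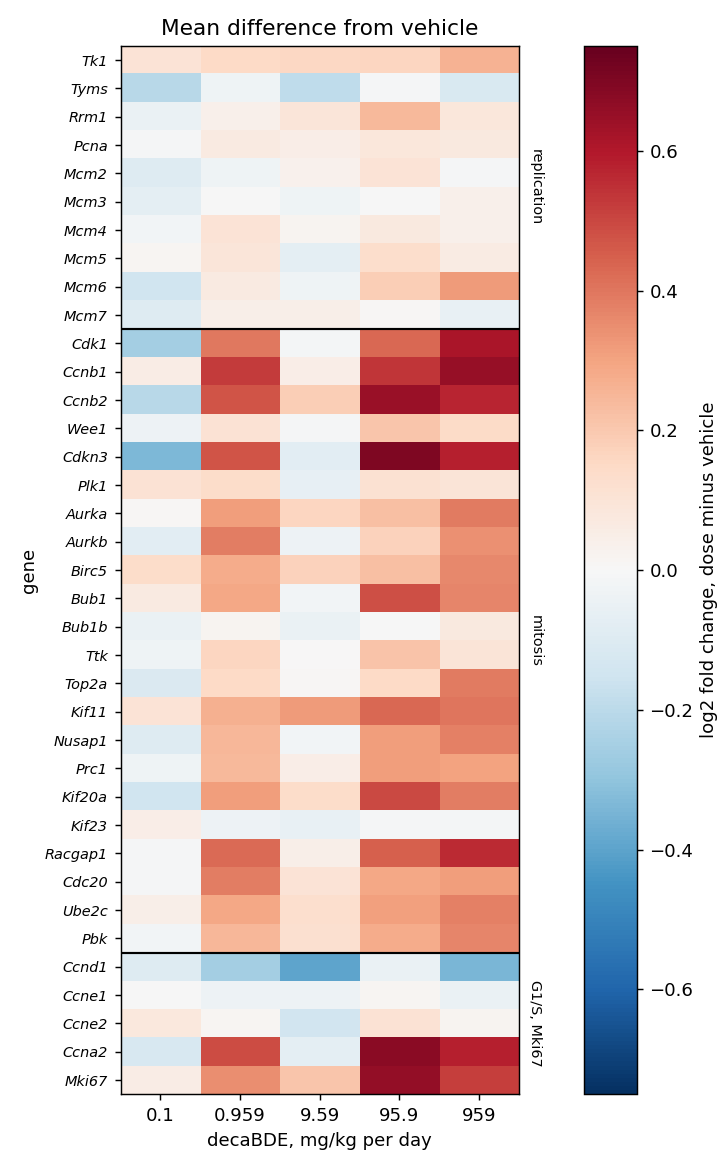
Mean log2 difference from vehicle for each of the 37 genes (rows, grouped by role) at each dose (columns, mg/kg per day), with red positive and blue negative. The columns for 0.959, 95.9 and 959 mg/kg are red across most mitosis rows, while 0.1 and 9.59 mg/kg are pale, and none of these differences passed the limma test.

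Among genes of nucleotide supply, Tk1 (thymidine kinase, which salvages thymidine for DNA synthesis) had the smallest adjusted p of the replication genes at 959 mg/kg. Its lowest, median and highest signals were 7.18, 7.44 and 7.65 at 959 mg/kg, against 7.06, 7.12 and 7.27 in vehicle. At that dose 4 of 6 arrays exceeded all those of vehicle, and the log2 difference was 0.26 (SE 0.0743, adjusted p = 0.309), a 1.2-fold ratio. At 9.59 and 95.9 mg/kg the difference was 0.16 each. Of the other probe sets of Tk1, 1 gave 0.33 at 959 mg/kg and the dimmest gave -0.01.
Rrm1, the large subunit of ribonucleotide reductase, which makes deoxynucleotides, ran 6.82, 7.08 and 7.24 at 95.9 mg/kg (lowest, median, highest), against 6.73, 6.81 and 6.94 in vehicle. There 5 of 6 arrays were above every vehicle array (0.24, SE 0.0882, adjusted p = 0.494), while at 959 mg/kg the values were 6.61, 6.94 and 7.10 and the difference 0.08 (adjusted p = 0.945). Its partner Rrm2 was read only by 2 probe sets shared with Rrm2l1, and the brighter of these averaged 7.56 at 959 mg/kg and 6.76 in vehicle (SD at most 0.75, n = 6 each), a difference of 0.79 (adjusted p = 0.774). Tyms, which makes thymidylate, had the lowest value of the replication genes at 959 mg/kg (-0.11, 95% interval -0.33 to 0.10).

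Of the replication fork genes, Pcna, the sliding clamp of DNA polymerases, differed little from vehicle at 959 mg/kg. It ran 9.05, 9.21 and 9.29 at 959 mg/kg, against 9.11, 9.11 and 9.16 in vehicle, and the 95% interval of the log2 difference was -0.03 to 0.18. Its slope in dose rank was 0.018 (95% interval 0.0003 to 0.037, limma adjusted p = 0.566). Pcna also had the smallest spread of all members, with an SD of 0.0828 among arrays of a group.
The MCM genes encode the helicase that unwinds DNA. Mcm6 ran 5.42, 5.70 and 6.10 at 959 mg/kg, against 5.24, 5.40 and 5.70 in vehicle, and 3 of its 6 arrays exceeded the vehicle maximum. Its log2 difference was 0.32 (SE 0.118, adjusted p = 0.656). At that dose it was the widest among the 10 replication genes with a probe set of their own. Mcm2 ran 5.75, 5.86 and 5.97 at 959 mg/kg, against 5.68, 5.89 and 6.02 in vehicle, fully overlapping, with a difference of -0.01 (95% interval -0.15 to 0.13). Mcm3, Mcm4, Mcm5 and Mcm7 had 0.04, 0.04, 0.06 and -0.05 at 959 mg/kg, so among subunits of 1 complex Mcm6 alone exceeded 0.1 there.

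Cdk1, the kinase that drives entry into mitosis, had a lowest, median and highest signal of 5.93, 6.76 and 7.16 at 959 mg/kg, against 5.55, 6.03 and 6.61 in vehicle. Of the 6 arrays at 959 mg/kg, 4 exceeded all vehicle arrays, and replicate 1 lay below the vehicle median. The log2 difference was 0.61 (SE 0.235, 95% interval 0.14 to 1.09, adjusted p = 0.693), a 1.53-fold ratio. The vehicle mean of 6.03 was followed by 5.78 at 0.1, 6.43 at 0.959, 6.02 at 9.59, 6.46 at 95.9 and 6.65 at 959 mg/kg.
Ccnb1, a B-type cyclin that activates Cdk1, ran 4.93, 5.78 and 6.21 at 959 mg/kg, against 4.42, 5.02 and 5.53 in vehicle. Again 4 of 6 arrays exceeded every vehicle array, and the difference was 0.65 (SE 0.229, adjusted p = 0.613). At that dose it was the widest among the 37 members with a probe set of their own. A second Ccnb1 probe set gave 0.57 and had Pearson's r of 0.841 with the first within groups.
Ccnb2, the other B-type cyclin here, ran 5.73, 6.55 and 6.95 at 959 mg/kg, against 5.17, 5.87 and 6.86 in vehicle. Only 1 of 6 arrays exceeded the vehicle maximum, which came from vehicle replicate 6 (0.57, SE 0.247, adjusted p = 0.77).
Cdkn3, a phosphatase that acts on cyclin-dependent kinases, had the widest spread of these 37 members (SD 0.567). It ran 5.70, 6.69 and 7.21 at 959 mg/kg, against 5.28, 5.86 and 7.01 in vehicle (0.59, SE 0.304, adjusted p = 0.833). Wee1, the kinase that holds Cdk1 inactive, had 0.14 at 959 mg/kg (SE 0.0952, adjusted p = 0.883), and its 6 arrays there lay within 5.36 to 5.44, inside the vehicle range of 5.03 to 5.47.

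**Figure D2:**
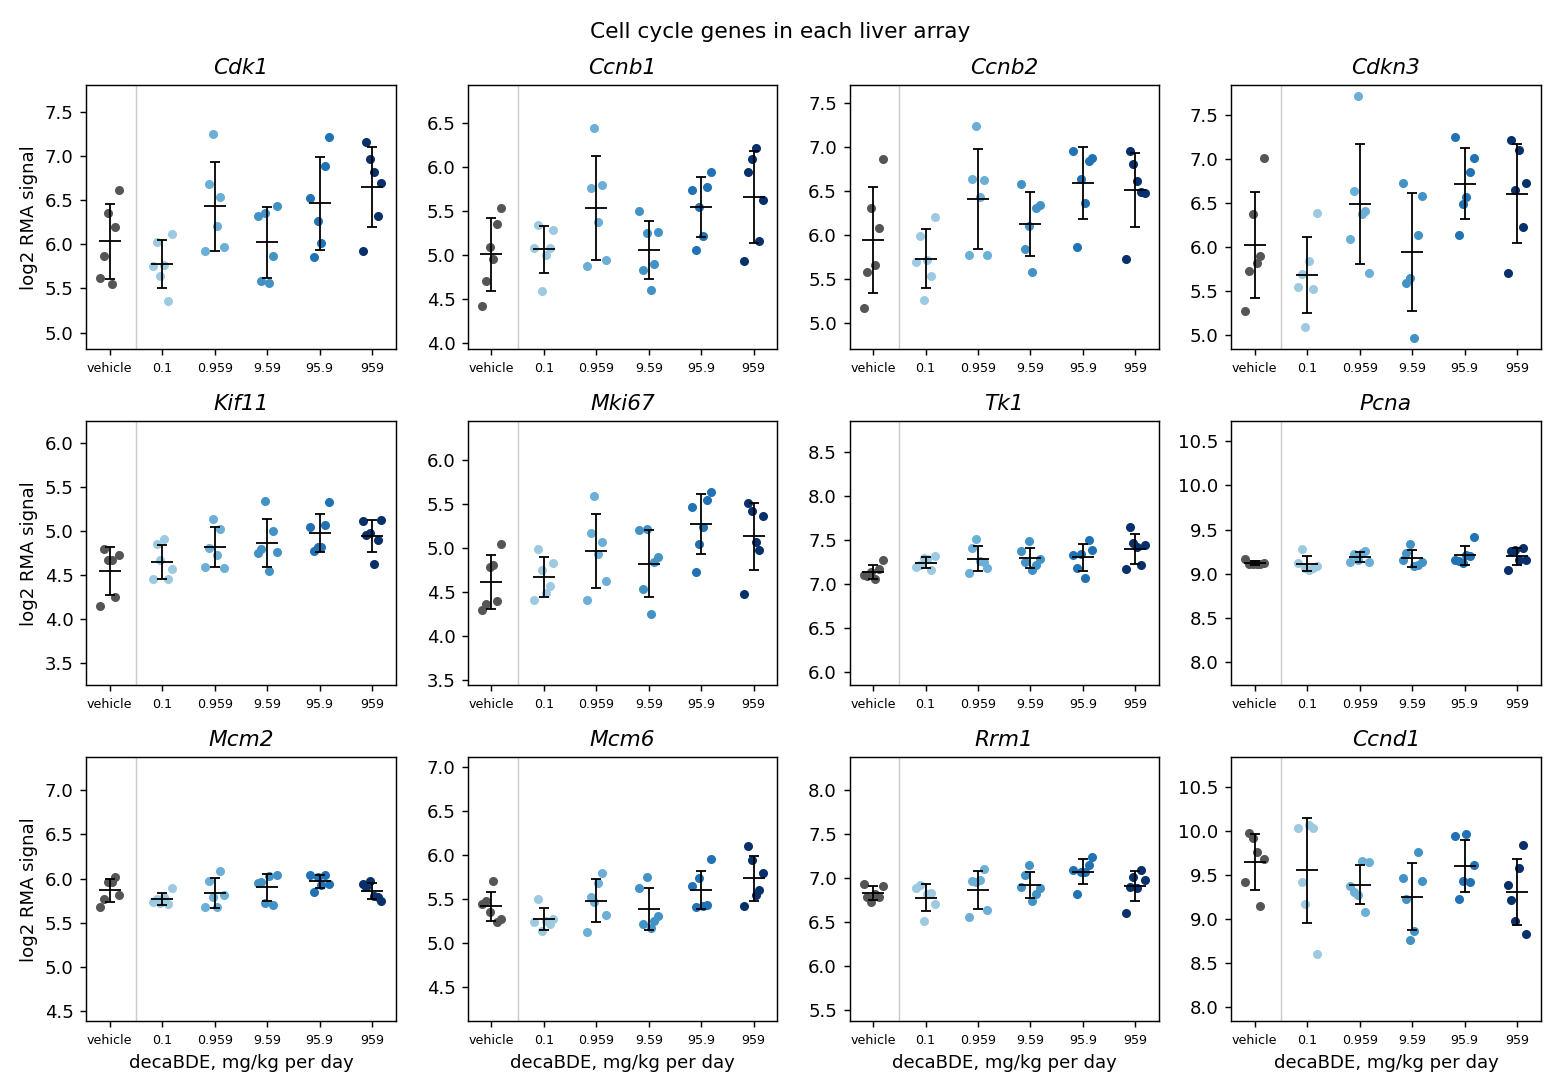
Log2 RMA signal of 12 genes in each array (points) by dose (mg/kg per day), with the group mean and SD (black bars, n = 6), all panels spanning the same number of log2 units. Cdk1, Ccnb1, Ccnb2, Cdkn3 and Mki67 are widely spread in every group, with 959 mg/kg means above vehicle and overlapping arrays, while Pcna and Mcm2 are narrow, with 959 mg/kg means close to vehicle.

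The mitotic kinases gave unequal values at 959 mg/kg. Aurka, which acts at the spindle poles, averaged 5.51 ± 0.273 and in vehicle 5.13 ± 0.286 (SD, n = 6 each; difference 0.39, adjusted p = 0.725), and Aurkb, the kinase of the chromosomal passenger complex, averaged 4.71 ± 0.456 and in vehicle 4.37 ± 0.415 (0.34, adjusted p = 0.854). Plk1, which acts throughout mitosis, had 0.10 (95% interval -0.08 to 0.27). Pbk, a mitotic kinase, had 0.37 (adjusted p = 0.77).
Birc5 (survivin), a subunit of the passenger complex with Aurkb, ran 5.52, 5.95 and 6.05 at 959 mg/kg, against 5.28, 5.49 and 5.92 in vehicle. Here 4 of 6 arrays lay above every vehicle array (0.36, SE 0.104, adjusted p = 0.312), the smallest adjusted p of the mitosis genes at that dose.
Top2a, the topoisomerase that untangles sister chromatids, ran 5.42, 5.76 and 6.20 at 959 mg/kg, against 5.11, 5.32 and 5.65 in vehicle (0.39, SE 0.163, adjusted p = 0.752). At 0.959 and 95.9 mg/kg it had 0.15 each, and a dimmer probe set had 0.11 at 959 mg/kg.
Spindle checkpoint genes differed among themselves: at 959 mg/kg Bub1 had 0.37, Ttk 0.09 and Bub1b 0.07, with adjusted p from 0.865 to 0.959. All 3 lay below the median level of all probe sets (5.16).

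Kif11, the motor that pushes spindle poles apart, had the smallest adjusted p of any member for the line in dose rank and is named for that reason, after its values were seen. It ran 4.63, 4.96 and 5.13 at 959 mg/kg, against 4.16, 4.67 and 4.79 in vehicle, and 5 of 6 arrays exceeded every vehicle array. Its means were 4.55 in vehicle and 4.65, 4.81, 4.87, 4.98 and 4.95 from 0.1 to 959 mg/kg in dose order. The slope was 0.09 per dose rank (SE 0.0214, adjusted p = 0.0581). A second Kif11 probe set had a slope of 0.03 (adjusted p = 0.671) and followed the first weakly within groups (Pearson's r 0.321 over 36 arrays). The brighter one passed in 3 of 9 other settings (adjusted p between 0.0388 and 0.479) and in 7 of 36 fits without 1 array (between 0.0321 and 0.145). Its mean over all arrays, 4.8, lay below the median level of all probe sets. A further fit, limited to probe sets at or above that level, left it out.
Genes of the central spindle and cell cleavage also varied: at 959 mg/kg Racgap1 had 0.56 (5 of 6 arrays above every vehicle array, adjusted p = 0.589), Kif20a 0.38, Prc1 0.30 and Kif23 -0.02. A dimmer Racgap1 probe set had -0.01, and a dimmer Kif23 probe set 0.18. Nusap1, which bundles spindle microtubules, had 0.38 (adjusted p = 0.772). Cdc20 and Ube2c, which work with the anaphase-promoting complex that ends mitosis, had 0.31 and 0.38 (adjusted p = 0.857 and 0.77). The dimmer Cdc20 probe sets had 0.20, 0.10, 0.06 and -0.09 at 959 mg/kg. In all, 12 members had 17 further probe sets, and 0 of those passed any of the 7 tests. At most 0.393% of all probe sets passed any single test.

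The remaining 5 genes are the proliferation antigen and the cyclins of G1 and S phase. Mki67, the gene of the Ki-67 proliferation antigen, ran 4.73, 5.35 and 5.63 at 95.9 mg/kg and 4.48, 5.21 and 5.50 at 959 mg/kg, against 4.30, 4.59 and 5.04 in vehicle. At 95.9 mg/kg 5 of 6 arrays lay above every vehicle array and the difference was 0.66 (SE 0.187, adjusted p = 0.277), and at 959 mg/kg 4 of 6 did (0.52, adjusted p = 0.636). Its slope in dose rank was 0.12 (SE 0.0317, adjusted p = 0.0931, between 0.0434 and 0.398 in 9 other settings). Mki67 averaged 4.91 over all arrays, below the median level, and the fit limited by level left it out too.
Ccna2, cyclin A2 of S phase and G2, ran 4.13, 5.43 and 5.97 at 959 mg/kg, against 4.20, 4.67 and 5.01 in vehicle. There 4 of 6 arrays lay above every vehicle array and replicate 1 lay below all of them (0.58, SE 0.278, adjusted p = 0.81).
Ccnd1, cyclin D1, which links growth signals to G1, pointed the other way. It ran 8.83, 9.30 and 9.85 at 959 mg/kg, against 9.15, 9.72 and 9.98 in vehicle, with 2 of 6 arrays below every vehicle array (-0.34, SE 0.207, adjusted p = 0.871). Its 3 probe sets had -0.34, -0.30 and -0.18 at 959 mg/kg and -0.40, -0.39 and -0.23 at 9.59 mg/kg. Ccne1 and Ccne2, the E cyclins of S phase entry, had -0.05 and 0.02 at 959 mg/kg, with 95% intervals of -0.22 to 0.13 and -0.18 to 0.22.

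A score per array, the mean of the members' signals after centring each gene over all arrays, shows where the mitosis values came from. The lowest, median and highest mitosis scores were -0.48, -0.17 and 0.25 in vehicle, -0.44, -0.19 and -0.02 at 0.1 mg/kg, -0.24, 0.12 and 0.62 at 0.959 mg/kg, -0.39, -0.06 and 0.09 at 9.59 mg/kg, -0.25, 0.24 and 0.41 at 95.9 mg/kg, and -0.27, 0.27 and 0.52 at 959 mg/kg. Arrays above every vehicle array numbered 0, 2, 0, 3 and 4 of 6 from the lowest to the highest dose, so every group overlapped vehicle. Low and high arrays occurred in the same group: at 959 mg/kg replicate 1 held the lowest signal of its group for 16 of 22 mitosis genes and replicate 2 the highest for 14. Within vehicle, replicate 6 held the highest for 19 of 22 and replicate 1 the lowest for 12. At 0.959 mg/kg replicate 3 held the highest for 17, and without it the median difference of the mitosis genes at that dose was 0.19 instead of 0.29. At 959 mg/kg the median was 0.29 without replicate 2 and 0.46 without replicate 1, and at 0.959, 95.9 and 959 mg/kg it stayed positive in each of the 36 fits that left out 1 array.
The replication scores at 959 mg/kg were -0.11, 0.03 and 0.20 (lowest, median, highest), against -0.09, -0.02 and 0.02 in vehicle, with 3 of 6 arrays above every vehicle array and 1 below.
The dose order was not a steady climb. Between neighbouring doses, compared after these medians had been seen, the mitosis medians were 0.28 (0.959 minus 0.1 mg/kg), -0.19 (9.59 minus 0.959), 0.21 (95.9 minus 9.59) and 0.04 (959 minus 95.9). Of the 22 mitosis genes, 21, 1, 22 and 12 were positive in these steps, and limma called 0 of the 37 members in each, where it called 0.00644%, 0.00322%, 0.00322% and 0.00644% of all probe sets.

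**Figure D3:**
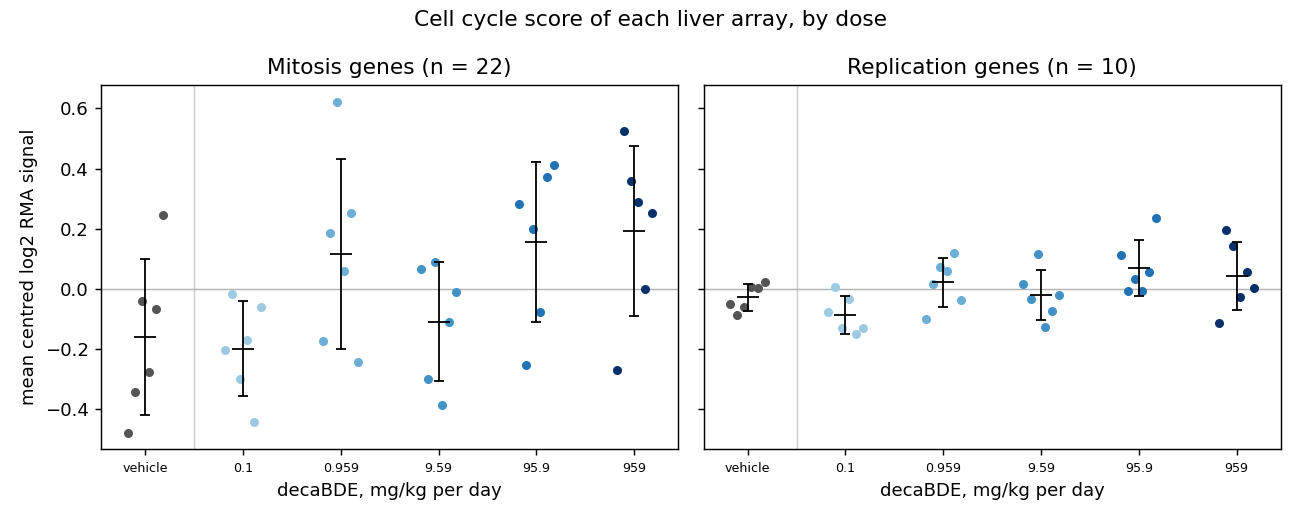
Mitosis score (left, 22 genes) and replication score (right, 10 genes) of each array by dose (mg/kg per day), on the same axis of mean centred log2 signal, with the group mean and SD (black bars, n = 6). Mitosis scores run from -0.48 to 0.62 with overlap of every group with vehicle, and replication scores stay within -0.15 to 0.24.

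The mitosis genes spread more among arrays of a group than most transcripts did. The median within-group SD was 0.299 for the 22 mitosis genes and 0.146 for the 10 replication genes, and 0.141 over all probe sets. The 95% interval of a difference from vehicle had a median half-width of 0.329 for mitosis and 0.169 for replication genes, so a mitosis gene had to differ by more to leave the range of error.
This spread was shared. After group means were removed, pairs of mitosis genes had a median Pearson's r of 0.65 over 36 arrays (222 of 231 pairs positive), pairs of replication genes 0.22 (38 of 45), and mixed pairs 0.30 (210 of 220). A first principal component held 75% of the within-group variance of the mitosis genes and 36.6% of that of the replication genes. These correlations are descriptions, since the genes were read on the same arrays and share each array's normalization.
Cdk1 followed the mean of the other mitosis genes most closely (r 0.942), then Ube2c (0.938), Ccna2 (0.925), Ccnb2 (0.923) and Kif20a (0.907). Tk1 was the replication gene nearest to them (0.847), ahead of Rrm1 (0.532) and Mcm6 (0.504), although Tk1 spread far less (SD 0.128) than Cdk1 (0.437). At the other end stood Tyms (0.16), Ccne1 (0.149), Wee1 (0.0453) and Ccnd1 (-0.178). Ccnd1 had an SD of 0.384, so its arrays varied as much as those of many mitosis genes without moving with them, and its other probe sets followed the brightest (r 0.924 and 0.765).
Mitosis and replication scores went together within groups (Pearson's r 0.717, Spearman's rho 0.74 over 36 arrays, and r 0.685 without the 2 arrays farthest from the median replication score). Within single groups r lay between 0.579 in vehicle and 0.806 at 9.59 mg/kg, with 6 arrays each.

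**Figure D4:**
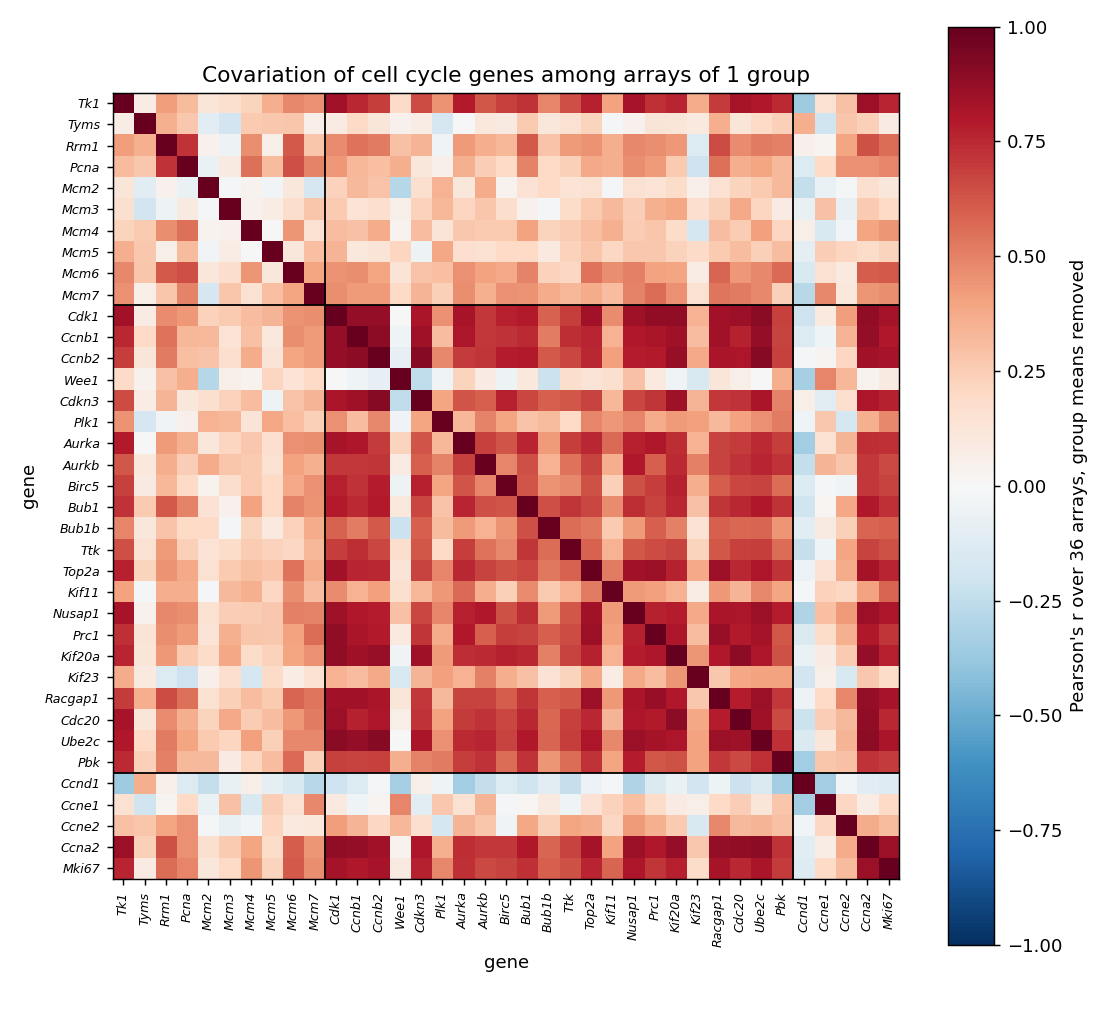
Pearson's r between the 37 genes over 36 arrays after group means were removed, ordered by role (replication, mitosis, then G1 and S cyclins with Mki67, divided by black lines), with red positive and blue negative. Most mitosis genes form a red block that also takes in Tk1, Ccna2 and Mki67, while the rows of Wee1, Ccnd1 and Tyms are mostly pale or blue.

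**Figure D5:**
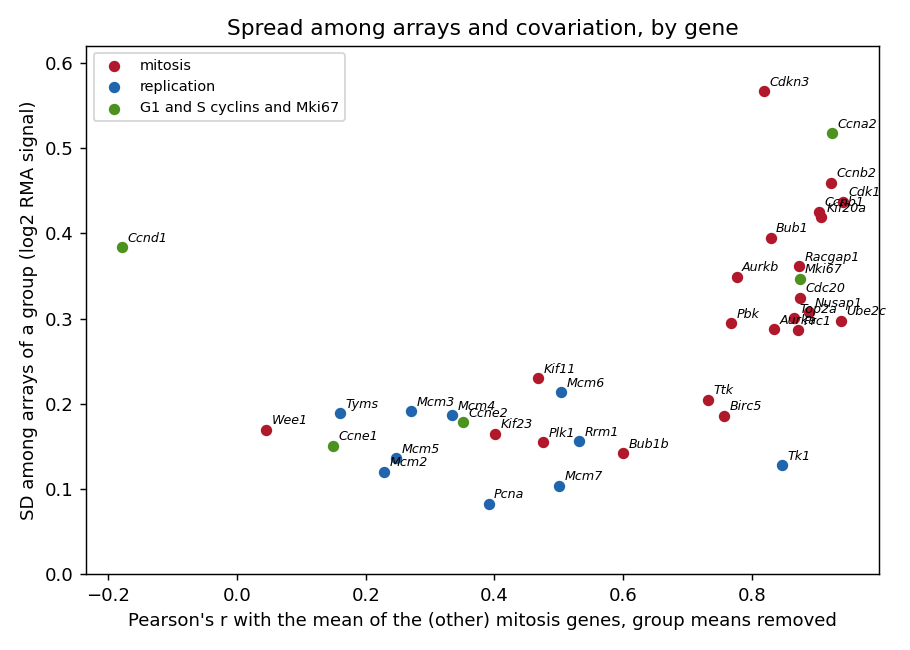
For each gene, the SD among arrays of a group (vertical axis, log2 signal) against Pearson's r with the mean of the mitosis genes, the gene itself left out (horizontal axis), coloured by role. Cdkn3, Ccna2 and Ccnb2 stand at the upper right, Tk1 at the lower right with an SD of 0.128, and Ccnd1 alone at the upper left.

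Outside the cell cycle lists, the genes whose within-group pattern was most like the mitosis mean, out of 9484 at or above the median level, were Pclaf (r 0.848), H2az1 (0.782), Haus4 (0.766), Tcf19 (0.734) and Sectm1b (0.734), over 36 arrays. Pclaf encodes a partner of the Pcna clamp, H2az1 a histone variant and Haus4 a subunit of the augmin complex of the spindle. Their log2 differences at 959 mg/kg were 0.36, 0.14, 0.33, 0.31 and 0.03, with adjusted p from 0.255 to 0.98.
Further genes of the same processes came from general lists, chosen like the members with earlier results of these data known. Of 64 other mitosis genes 0 passed any test, where at most 0.393% of all probe sets passed any single test. At an unadjusted p under 0.05, 19 of the 64 were positive at 959 mg/kg (3.55% of all probe sets) and 1 was negative (2.53%). For the line in dose rank 27 were positive (4.66%) and 0 negative (4.05%). Their median differences were -0.05, 0.10, 0, 0.12 and 0.14 from the lowest to the highest dose, the same order as in the members. Their score followed the mitosis score within groups with r 0.974. The smallest F-test p among them belonged to Cenpw, Aspm and Cenpk, genes of the kinetochore and spindle. Cenpw, a kinetochore gene, ran 3.68, 4.33 and 4.41 at 959 mg/kg, against 3.57, 3.72 and 4.15 in vehicle (0.39, SE 0.145, adjusted p = 0.662), and Aspm and Cenpk had 0.23 and 0.21. Of 41 other replication genes 0 passed, against the same shares of all probe sets, with medians between 0.02 and 0.06. At an unadjusted p under 0.05, 2 of the 41 were positive at 959 mg/kg and 0 negative. For the line in dose rank 7 were positive and 2 negative. Rfc4, Rfc2 and Rpa3, which load the clamp or coat single-stranded DNA, had 0.16, 0.11 and 0.19 at 959 mg/kg (adjusted p from 0.369 to 0.913).
Of 41 genes that control G1 and S phase, 1 passed, for the line in dose rank, where 0.393% of all probe sets passed. Gadd45b, a stress-inducible growth arrest gene, rose with dose rank (slope 0.10, SE 0.0218, adjusted p = 0.0224). It ran 4.78, 5.17 and 5.45 at 959 mg/kg, against 4.46, 4.71 and 4.98 in vehicle, and 5 of 6 arrays exceeded every vehicle array. It did not pass when vehicle replicate 2, vehicle replicate 4, vehicle replicate 5 or 959 mg/kg replicate 5 was left out (adjusted p up to 0.0677), nor with the line drawn over the dosed groups alone (0.137). No single dose passed (0.299 at 959 mg/kg). Gadd45b group means ran from 4.69 to 5.16, against a median level of 5.16 over all probe sets. A fit limited to probe sets at or above that level left Gadd45b out. E2f4 and Tfdp2, partners in E2F complexes, had -0.002 and -0.12 at 959 mg/kg (adjusted p = 0.997 and 0.886).

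Markers of cell types that the liver piece could hold were read on the same arrays. Hepatocyte marker scores lay between -0.03 and 0.04 over all 36 arrays, but albumin, read between 14.96 and 15 where 15 was the highest value on the arrays, had little room to show a change. Over all probe sets, the background for each list here, 53.2%, 52%, 50.1%, 48.3% and 49.5% were positive in dose order. Of 11 hepatocyte markers, 2, 5, 2, 4 and 3 were positive. Stellate cell and fibroblast markers numbered 15, of which 9, 11, 14, 15 and 14 were positive in dose order, with medians of 0.06, 0.04, 0.19, 0.32 and 0.10. Their scores ran from 0.03 to 0.47 at 95.9 mg/kg, against -0.35 to 0.09 in vehicle. Of the 15 markers, 1 (Timp1) passed for dose rank (adjusted p = 0.012), where 0.393% of all probe sets did. Of 9 cholangiocyte markers, 5, 4, 3, 7 and 9 were positive in dose order, with medians of 0.01, -0.001, -0.04, 0.14 and 0.14, and their scores ran from -0.21 to 0.67 at 959 mg/kg, against -0.27 to 0.27 in vehicle. All 10 Kupffer cell and macrophage markers were negative at each of the 5 doses, with medians of -0.40, -0.45, -0.29, -0.15 and -0.16 in dose order. Their scores ran from -0.52 to 0.05 at 0.959 mg/kg, against -0.36 to 0.48 in vehicle. The 5 comparisons share 1 vehicle group, so they are not separate readings, and 6 of these 10 markers had a positive slope in dose rank. Of 14 lymphocyte markers, 4, 2, 1, 1 and 5 were positive in dose order, with medians of -0.11, -0.18, -0.15, -0.10 and -0.09, and their scores ran from -0.12 to -0.04 at 0.959 mg/kg, against -0.03 to 0.26 in vehicle. Of 11 endothelial markers, 3, 2, 2, 5 and 3 were positive in dose order, with medians of -0.084, -0.098, -0.087, -0.007 and -0.055. No macrophage, lymphocyte, endothelial or cholangiocyte marker passed any of the 7 tests, where at most 0.393% of all probe sets passed any single test. Within groups the mitosis score had Pearson's r with these lists of -0.134 (stellate), -0.00466 (cholangiocyte), 0.138 (macrophage), 0.11 (lymphocyte), 0.182 (neutrophil), 0.0525 (endothelial) and -0.139 (erythroid precursor), and -0.178 with actin's 3' minus 5' signal, which tracks RNA integrity. Without the 2 arrays farthest from each list's median score, the neutrophil value was 0.00696, the lymphocyte value 0.00109, and the erythroid value turned to 0.139. Markers below the median level of all probe sets numbered 10 of 12 (erythroid), 9 of 14 (lymphocyte), 5 of 7 (neutrophil) and 4 of 9 (cholangiocyte). They numbered 1 of 10 (macrophage), 1 of 11 (endothelial) and 0 of 15 (stellate). Low signal limits what these correlations can show. The part of these cells in the mitosis values was not tested. No detection calls were used, and 11 of the 37 members lay below the median level of all probe sets.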

How the data were processed

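The authors deposited log2 RMA values of Affymetrix rat 3' arrays, made with affy per the submitters' processing notes, whose version is not given in the sources used here. RMA corrects background, equalizes array distributions and summarises probes, so shifts common to all genes are removed. Array medians were 5.12 to 5.21 and correlations between arrays 0.988 to 0.996, and replicate 6 of 0.1 mg/kg had the lowest array weight (0.517). The number of arrays limits the precision. Of 31099 probe sets, 57 controls were left out. All 31042 others were fitted with limma 3.58.1 in R 4.3.3 (1 mean per group, 30 residual degrees of freedom, two-sided contrasts, an F-test and a line in dose rank), with Benjamini-Hochberg adjustment over all probe sets and a threshold of 0.05. The series' design names maanova, which was replaced by limma. The fit was tested on simulated data. A rule named the members given per array: 8 with the smallest F-test p by role, and fixed genes, 6 of them not among those 8. Members, lists and rule were chosen with earlier results of these data known. Across groups, same-numbered arrays were no more alike than others (median r -0.0344 over 90 pairs, against 0.00851 over 450 differently numbered pairs). Whether same-numbered arrays were handled together was not tested. Promoters came from RefSeq on GRCr8; all 37 symbols matched RefSeq.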

Additional observations from a re-analysis of the deposited data

Results flagged for a closer look

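Of 102 sets of 6 values examined (14 genes and 3 scores in 6 groups), 5 held a value whose gap to its nearest neighbour exceeded Dixon's 95% limit for 6 values, as a share of the group's range, where chance gives about 1 in 20. Pcna supplied 3 of these: 95.9 mg/kg replicate 6 read 9.418 with the next array at 9.209, 0.1 mg/kg replicate 2 read 9.279 with the next at 9.125, and vehicle replicate 1 read 9.162 with the next at 9.121. Mcm6 read 5.507 in 0.1 mg/kg replicate 2, with the next at 5.271. Birc5 read 5.916 in 0.1 mg/kg replicate 6, with the next at 5.661, and that array also had the lowest array weight (0.517).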

How the results depend on the processing

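The count of cell cycle genes called stayed 0 for each of the 5 doses and for the F-test under every alternative run. For the line in dose rank it was 0 as reported and 1 after subtraction of each array's median, with the brightest probe set per gene only, and with an intensity trend and robust estimation (Kif11 each time), and 1 with array weights (Mki67). Leaving out 1 array gave between 0 and 2, with calls in 10 of 36 fits: Kif11 without vehicle replicate 2, 0.1 mg/kg replicate 2 or 4, 9.59 mg/kg replicate 3 or 4, or 959 mg/kg replicate 4, Mki67 without 95.9 mg/kg replicate 2 or 959 mg/kg replicate 1, both without 0.959 mg/kg replicate 3, and Ccnb2 without vehicle replicate 6. With the replicate block the count was 0 for every comparison, and 6 of 36 arrays correlated best with their own number. The cause of these changes was not tested. Median differences of the mitosis genes kept their sign at 0.959, 95.9 and 959 mg/kg (0.187 to 0.371, 0.243 to 0.387 and 0.285 to 0.456 without 1 array), and crossed 0 at 0.1 and 9.59 mg/kg (-0.093 to 0.054 and -0.017 to 0.112). Those of the replication genes ran from -0.081 to -0.042, 0.029 to 0.09, 0.001 to 0.045, 0.071 to 0.111 and 0.025 to 0.082 in dose order. With the sense strand alone CHR letters stood in 14 of 17 mitosis promoters and CCAAT in 10. Without 0.1 mg/kg replicate 6 the median correlation of mitosis pairs was 0.653. Members below the median level were not tested against background, and 6 arrays per group limit what could be called.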
